A study of Mus musculus with 33 samples.

Results

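Clustered histone genes, the genes whose mouse symbols begin with Hist1h, Hist2h, Hist3h or Hist4h, were examined in bulk RNA sequencing of the nucleus accumbens, a region of the ventral striatum. Of 24061 gene symbols in the deposited count table, 68 matched this rule, and 7 of these had 10 or more reads in at least 5 of 33 libraries. The 7 genes were Hist1h2bc, Hist3h2a, Hist3h2ba, Hist1h1c, Hist2h2be, Hist1h2be and Hist1h4i. The libraries came from C57BL/6J mice in 6 groups, with 5 GF morphine, 5 Abx morphine, 5 H2O morphine, 6 GF saline, 6 Abx saline and 6 H2O saline mice. GF mice were germ-free, bred in isolators at the institution and matched in age to the conventional mice. Abx mice were conventionally raised and drank neomycin at 2 mg/mL with vancomycin and bacitracin at 0.5 mg/mL each, and the antifungal pimaricin at 1.2 µg/mL, from 2 weeks before the injections. H2O mice were conventionally raised and drank water. Conventional mice were 7 to 9 weeks old and came from a supplier, so that GF and conventional mice differ in origin as well as in microbiota. Morphine was given at 20 mg/kg per day for 7 days. Abx and H2O were assigned by cage, and the cage of each mouse is not in the labels. A library stands for 1 mouse throughout, following the titles.

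Histones package DNA: pairs of H2A and H2B join H3 and H4 in the nucleosome core, and the linker histone H1 binds where the DNA enters and leaves. Most clustered histone genes are replication-dependent. Their mRNA is made in dividing cells and ends just after a short stem-loop, which the stem-loop binding protein SLBP holds, rather than in a poly(A) tail. Some of these genes also give polyadenylated transcripts that read past the stem-loop, above all in cells that no longer divide, as neurons do not. The libraries were labelled as polyadenylated RNA, with cDNA made by a SMARTer kit. A read from a clustered histone gene was therefore, by the label, a read from RNA with a poly(A) tail. Reads of RNAs that carry no poly(A) tail were also counted in these libraries, as given below.

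The stem-loop of the 5 genes in which it was found is shown because it marks where a replication-dependent histone mRNA would end. The sequences are given 5′ to 3′ from GENCODE M21 transcripts on GRCm38, with the 16 bases of the stem-loop in capitals and flanking bases in lower case.
Hist1h1c, chr13:23739512-23739527 (+): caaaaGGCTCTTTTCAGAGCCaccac
Hist1h2be, chr13:23585531-23585546 (-): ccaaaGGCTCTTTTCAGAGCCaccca
Hist1h4i, chr13:22040966-22040981 (-): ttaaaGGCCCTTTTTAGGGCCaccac
Hist3h2a, chr11:58955172-58955187 (+): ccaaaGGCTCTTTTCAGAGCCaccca
Hist3h2ba, chr11:58949349-58949364 (+): ccaaaGGCTCTTTTCAGAGCCacctt
The stem-loop lay 24 to 41 bases after the stop codon in these genes. In all 5 the annotated transcript went on beyond it, by 169 bases in Hist3h2ba, 330 in Hist1h4i, 840 in Hist1h1c, 1643 in Hist3h2a and 1861 in Hist1h2be. The remaining pair held no match to the motif in the annotated transcript. In Hist1h2bc the coding exon ended 9 bases after the stop codon, and a 7554-base intron joined it to a second exon. Hist2h2be had 1 exon, with 2192 bases after the stop codon.

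**Figure D1:**
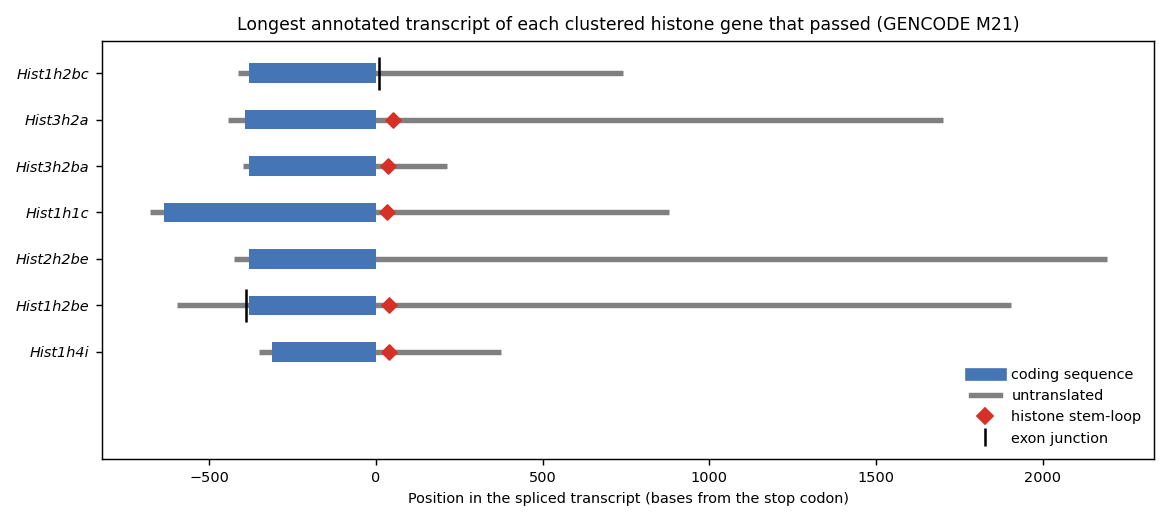
The longest annotated transcript of each of the 7 genes, one per row, drawn in bases from the stop codon, with coding sequence as blue boxes, untranslated sequence as grey lines, the stem-loop as a red diamond and exon junctions as black strokes. All 5 stem-loops stand within 41 bases of the stop codon, and untranslated sequence continues to their right by 169 to 1861 bases.

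The 7 genes held 27089 of the 28842 reads counted to the 68 clustered histone genes, or 93.9%. Hist1h2bc had 7540 reads over all libraries, Hist3h2a 6727, Hist3h2ba 5533, Hist1h1c 3430, Hist2h2be 2374, Hist1h2be 1197 and Hist1h4i 288. The first 5 of these had 10 or more reads in all 33 libraries, Hist1h2be in 32 and Hist1h4i in 12. The genes just under the rule were Hist1h4h, with 10 or more reads in 4 libraries and 191 reads in all, and Hist3h2bb-ps, Hist1h1e and Hist1h4k, each with 10 or more reads in 3 libraries. Of these, Hist3h2bb-ps is annotated as a processed pseudogene, and it is counted below as a Hist3 gene and an H2B gene. Of the 61 genes that did not pass, 50 had at least 1 read and 11 had none. Reads were unevenly spread over the clusters: 4 of 54 Hist1 genes passed, 1 of 10 Hist2 genes, 2 of 3 Hist3 genes, and the 1 Hist4 gene did not. By class, H2B genes held 59.4% of the reads, H2A genes 24.0%, H1 genes 12.6%, H4 genes 3.09% and H3 genes 0.839%. None of the 12 H3 genes passed.

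The genes that passed had longer annotated transcripts than those that did not. The longest transcript had a median of 1560 bases in the 7 genes (614 to 2620) and of 524 bases in the other 61 (312 to 7425). It exceeded 1000 bases in 5 of 7 genes that passed and in 13 of 61 that did not. A transcript carried AATAAA, or its common variant ATTAAA, the letters of the cleavage and polyadenylation signal, within its last 50 bases in 6 of 7 genes that passed and in 11 of 61 that did not. The stem-loop was found in the annotated transcripts of 5 of 7 and of 41 of 61 genes. Where it was found, the annotation continued after it by a median of 840 bases in genes that passed and 51 bases in those that did not. A stem-loop beyond the annotated end could not be found. The models of Hist1h4k (312 bases) and Hist2h2bb (381 bases), without a match, are no longer than the coding sequences of Hist1h4i (312) and Hist1h2bc (381). A missing match therefore does not show that a gene lacks the stem-loop. How reads were counted along a gene is not given in the sources used here. Reads from near-identical copies can also be lost: the share of 50-base windows that occurred in another clustered histone gene had a median of 16.3% in the 7 genes and 49.7% in the other 61. That share was above 50% in 8 of the 11 genes without a read. The part of length and of shared sequence in which genes passed was not tested.

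**Figure D2:**
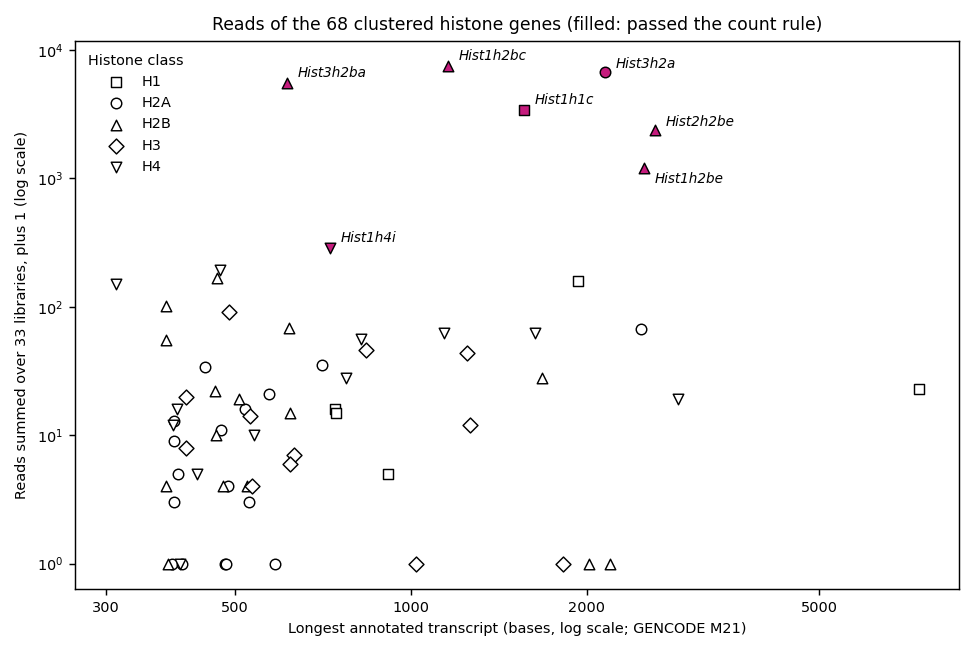
Reads summed over 33 libraries, plus 1, for each of the 68 clustered histone genes against the length of its longest annotated transcript in bases, both on log scales, with a marker for the histone class and filled markers for the 7 genes that passed. Of the 7 filled markers, 6 stand above 1000 reads, while no open marker exceeds 191 reads.

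Levels are given as CPM (read counts scaled to library size with TMM factors), with the mean ± SD of each group's libraries. The mean over all 33 libraries was 22.7 CPM for Hist1h2bc, 20.0 for Hist3h2a, 15.96 for Hist3h2ba, 10.2 for Hist1h1c, 7.10 for Hist2h2be, 3.71 for Hist1h2be and 0.894 for Hist1h4i. Per kilobase of annotated exon the order was different. Hist3h2ba stood highest at 26.0 CPM per kb, followed by Hist1h2bc at 19.7, Hist3h2a at 9.32, Hist1h1c at 6.57, Hist2h2be at 2.71, Hist1h4i at 1.23 and Hist1h2be at 0.835. For Hist1h2be the length was that of all annotated exons of 3 transcripts, 4446 bases, while its longest transcript has 2506. Its place below Hist1h4i depends on this choice of length. The 7 genes also differed in how far their level ranged over the libraries. The highest library was 14.3 times the lowest for Hist1h2be, 5.92 times for Hist1h4i, 4.07 times for Hist1h2bc, 3.89 times for Hist1h1c, 2.98 times for Hist3h2a, 2.09 times for Hist3h2ba and 1.95 times for Hist2h2be. For scale, 11 variant histone genes summed to a mean of 678 CPM, 7.87 times the 86.1 CPM of the clustered genes. Most variant histone genes are expressed outside replication and give mRNA with ordinary poly(A) tails. The highest of the 11 was H3f3b, one of the genes of histone H3.3, at 175 CPM.

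Libraries held 4.87 to 15.3 M reads in genes. GF libraries held 4.87 to 8.13 M, except GF saline replicate 1 with 15.3 M, which also lacked reads of the pituitary hormone gene Gh. Conventional libraries held 9.36 to 15.3 M. The 10 other GF libraries held 13 to 433 Gh reads and conventional libraries 0 to 24. In depth and in Gh this library thus resembled conventional ones and its label is in doubt, which was not tested. Its Hist1h2be level of 7.31 CPM lay above the H2O saline maximum of 6.71 CPM. Its Hist3h2ba level of 15.09 CPM lay just under the H2O saline minimum of 15.17 CPM. The remaining clustered histone genes that passed lay within the H2O saline range. In the comparisons that use GF saline mice, no call on a clustered histone gene was lost without this library. GF morphine replicate 5 also stood apart, with 19.8% of reads not uniquely placed, against 9.03 to 12.5% in the rest of its group. Without it the 5 calls between GF morphine and Abx morphine mice held, with Hist1h4i at an edgeR adjusted p of 0.0487, and 1 gene was called lower. Medium spiny neuron markers summed to 2622 to 8168 CPM in every library. Cortical glutamatergic markers varied from 9.46 to 1500 CPM between libraries.

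**Figure D3:**
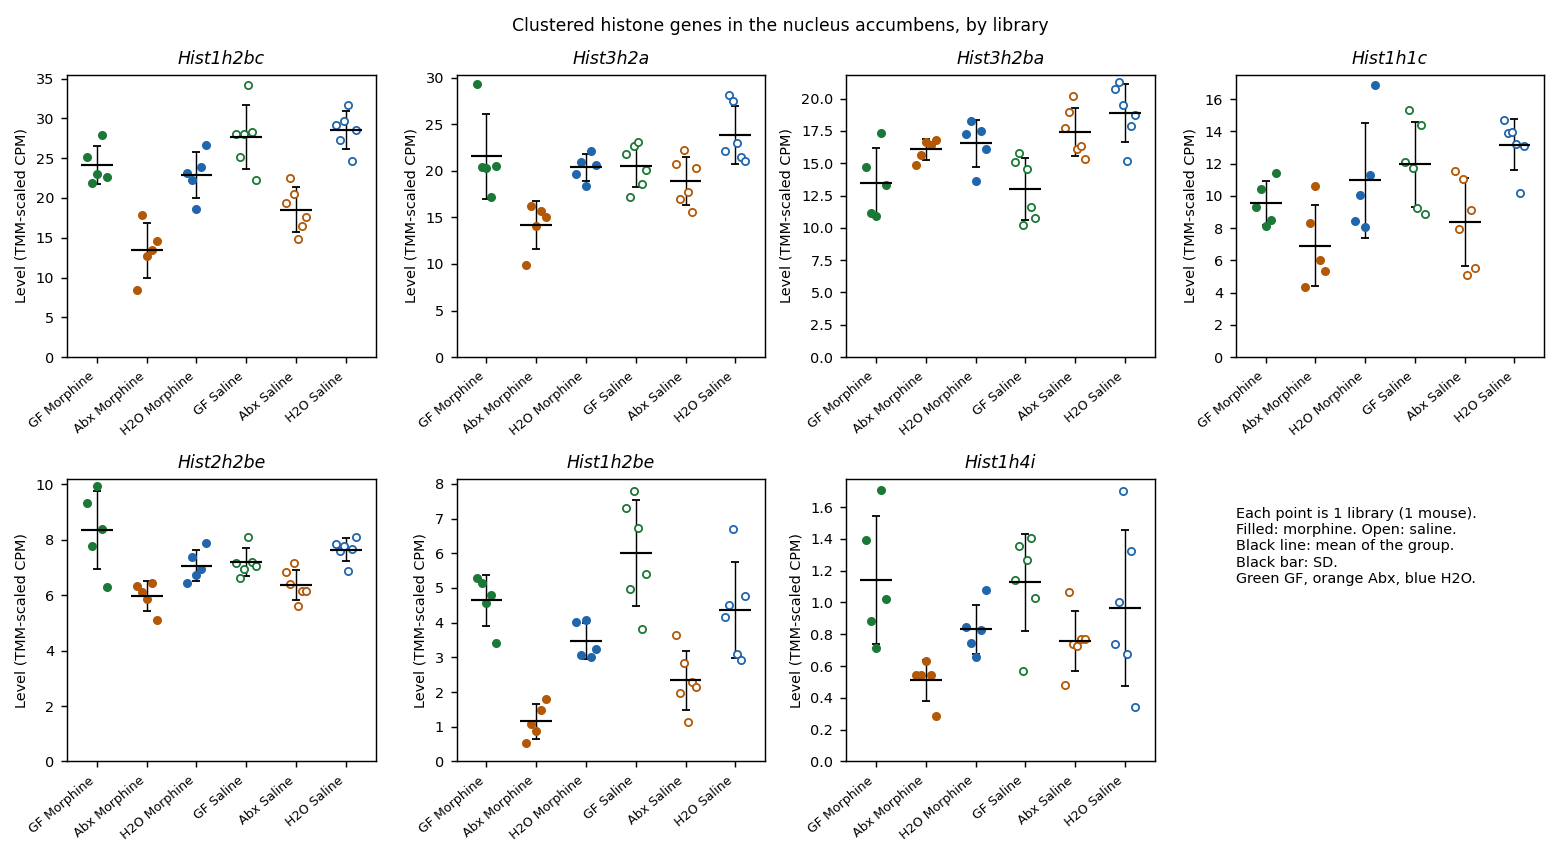
Level of the 7 clustered histone genes in CPM for every library, 1 panel per gene and 1 column per group, with filled points for morphine, open points for saline, black lines for means and bars for SD. Hist1h2bc, Hist3h2a and Hist1h2be are lowest in the Abx morphine column, whose values for these genes do not overlap those of GF morphine or H2O morphine mice.

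Differences were tested with edgeR's quasi-likelihood test on all 14607 genes that passed its filter, with p-values adjusted over all of them and a threshold of 0.05. All log2 fold changes below are from this fit, ± SE. Comparisons share groups, so that their values are not independent of each other.

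Abx morphine mice stood apart from both other morphine groups. Against H2O morphine mice, 3 of the 7 clustered histone genes were lower and 0 higher, where 10.3% of all genes tested were called and 5.76% were called lower. These were Hist1h2bc (-0.76 ± 0.13), Hist3h2a (-0.52 ± 0.13) and Hist1h2be (-1.56 ± 0.27). The median of the 7 genes was -0.66, against -0.004 for all genes, and all 7 values were below 0, although Hist3h2ba lay at 0.01 after the correction for GC content and length. The ranges of the groups did not overlap for 4 of the 7 genes, all lower, where 7.15% of all genes had such ranges in that direction. GF morphine mice, set against Abx morphine mice, had 5 of the 7 genes higher and 0 lower, where 28% of all genes were called and 14.7% were called higher. After the correction for GC content and length Hist3h2ba was also called, lower, with an adjusted p of 0.0473. The 5 higher genes were Hist1h2bc (0.84 ± 0.14), Hist3h2a (0.60 ± 0.13), Hist2h2be (0.49 ± 0.10), Hist1h2be (1.98 ± 0.28) and Hist1h4i (1.15 ± 0.34). The median of the 7 genes was 0.60, against 0.005 for all genes, and ranges did not overlap for 4 of them, all higher, where 7.87% of all genes had such ranges in that direction. GF morphine against H2O morphine mice gave 0 called of the 7, where 5.86% of all genes were called. Under the same edgeR test 2 of the 7 had an unadjusted p under 0.05, as had 3509 of all 14607 genes. Limma voom called 1, lower, and 8.16% of all genes.

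Among saline mice the calls were fewer. Abx saline mice had 1 of the 7 genes lower than H2O saline mice, Hist1h2bc (-0.62 ± 0.12), where 0.116% of all genes were called and 0.0548% were called lower. Its ranges did not overlap, as for 1.01% of all genes in that direction. The median of the 7 was -0.33, against 0.009 for all genes. An unadjusted p under 0.05 was found for 5 of the 7 and for 1760 of all 14607 genes. GF saline mice had 1 of the 7 lower than H2O saline mice, Hist3h2ba (-0.53 ± 0.11), where 32.9% of all genes were called and 14.9% were called lower, and 1 of 7 is near that share. Against Abx saline mice, GF saline mice had 2 of the 7 higher, Hist1h2bc (0.58 ± 0.12) and Hist1h2be (1.38 ± 0.23), and 1 lower, Hist3h2ba (-0.41 ± 0.11), where 27.4% of all genes were called, 14.6% higher and 12.8% lower. The ranges of Hist1h2be did not overlap, as for 2.57% of all genes in that direction. Without H2O saline replicate 5, or without GF saline replicate 5, 2 genes were called in place of 1 between GF saline and H2O saline mice.

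The response to morphine was compared within each microbiota state. In Abx mice, 3 of the 7 genes were lower with morphine than with saline and 0 higher, where 5.42% of all genes were called and 3.2% were called lower. These were Hist1h2bc (-0.46 ± 0.13), Hist3h2a (-0.41 ± 0.12) and Hist1h2be (-0.99 ± 0.27), and the median of the 7 was -0.41, against -0.006 for all genes. When only these groups were fitted, 0 of the 6 tested were called, where 7.99% of all genes were. After the correction for GC content and length 1 was called, where 5.23% of all genes were. In H2O mice, 0 of the 7 were called, where 0% of all genes were called. All 7 values lay below 0, from -0.32 to -0.11, and at an unadjusted p under 0.05 there were 2222 genes, 1 of the 7 among them. None of the 7 was among the 1325 genes called by limma voom or the 332 called by DESeq2, which gave 1 of the 7 no adjusted p. Hist1h4i lay above 0 by limma voom (0.06) and without H2O saline replicate 5 (0.009). In GF mice, 0 of the 7 were called by edgeR, DESeq2 or limma voom, where 0.00685% of all genes were called by edgeR. There, 1 of the 7 had an unadjusted p under 0.05, as had 961 of all 14607 genes. Whether morphine acted differently between states was tested directly as an interaction. For GF minus H2O, 0 of the 7 were called, where 0% of all genes were called, and for Abx minus H2O, 0 of the 7, where 0.11% of all genes were called. At an unadjusted p under 0.05 these counts were 1 and 0 of the 7, and 2325 and 1154 of all 14607 genes. Limma voom called none of them, and DESeq2 none of those to which it gave an adjusted p, which 4 of the 7 lacked for GF minus H2O and 1 for Abx minus H2O.

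**Figure D4:**
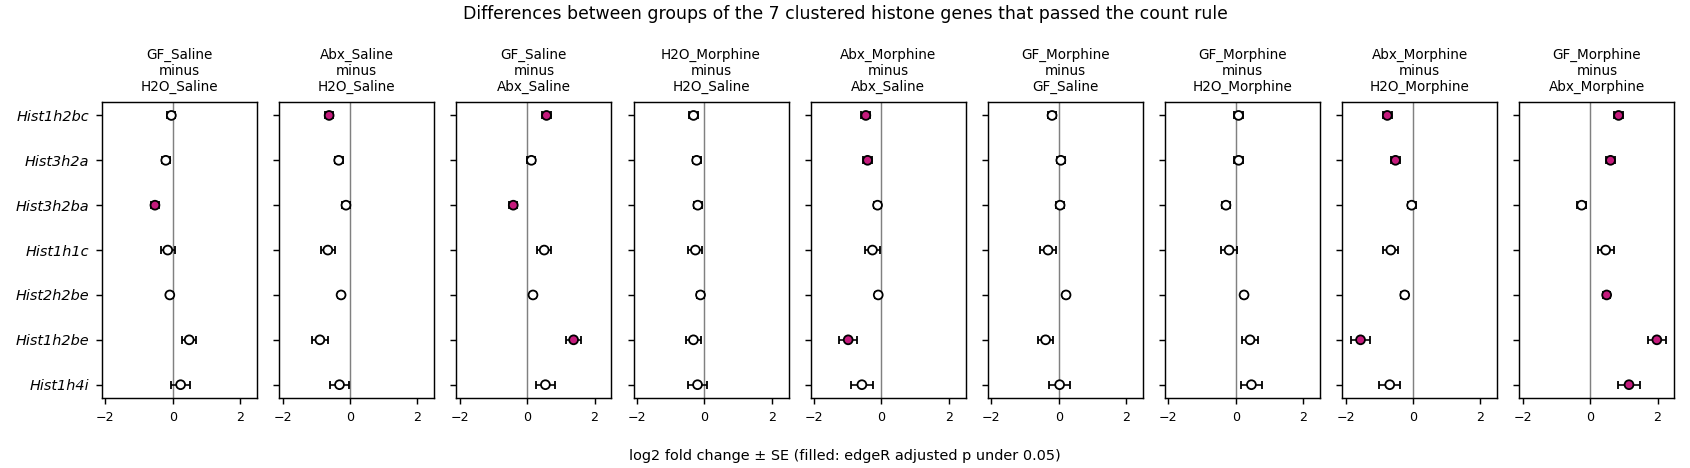
The log2 fold change ± SE of the 7 genes in 9 comparisons, 1 panel per comparison with the genes as rows, filled where the edgeR adjusted p was under 0.05. Filled points for Hist1h2bc, Hist3h2a and Hist1h2be lie left of 0 in the Abx morphine minus H2O morphine panel and right of 0 in the GF morphine minus Abx morphine panel, while Hist3h2ba is filled in panels of GF saline mice alone.

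Hist1h2bc codes for a histone H2B and was the most abundant member in reads. Its level was 25.2, 21.9, 23.0, 27.9 and 22.7 CPM in GF morphine libraries, 8.41, 17.9, 12.7, 13.4 and 14.6 CPM in Abx morphine libraries, and 23.1, 22.2, 18.6, 23.8 and 26.6 CPM in H2O morphine libraries. All 5 Abx morphine libraries were below all libraries of the other morphine groups. In saline mice the lowest, median and highest library had 22.2, 28.0 and 34.2 CPM in the GF group, 14.8, 18.5 and 22.5 CPM in the Abx group, and 24.6, 28.8 and 31.7 CPM in the H2O group. Abx saline libraries were below every H2O saline library, and 1 GF saline library reached into the Abx range. The adjusted p was 0.000265 for Abx morphine against H2O morphine mice and 4.74e-05 for GF morphine against Abx morphine mice. It was 0.0218 for Abx saline against H2O saline mice and 0.00106 for GF saline against Abx saline mice. In GF saline mice Hist1h2bc averaged 27.6 ± 3.98 CPM, against 28.5 ± 2.39 CPM in H2O saline mice, a difference of -0.04 ± 0.12.

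The call of Hist1h2bc between Abx saline and H2O saline mice was sensitive to single libraries, although the fold change stayed between -0.69 and -0.56. The adjusted p rose to 0.108, 0.0754 and 0.0731 without Abx saline replicates 4, 5 and 6, and to 0.0556, 0.0612 and 0.0607 without H2O saline replicates 5, 6 and 9. Without Abx saline replicate 1, by contrast, 2 genes were called in place of 1. For Abx morphine against Abx saline mice the adjusted p of Hist1h2bc was 0.0331. It rose to 0.131, 0.0961 and 0.0687 without Abx morphine replicates 1, 3 and 4, and to 0.0748, 0.0951 and 0.0639 without Abx saline replicates 1, 2 and 3. In H2O mice Hist1h2bc had the smallest p of the 7 for morphine against saline, with -0.32 ± 0.12 and an edgeR adjusted p of 0.208.

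Hist1h2be, a further H2B gene of the Hist1 cluster on chromosome 13, had the widest relative range over libraries of the 7. It had 5.29, 5.14, 4.55, 4.81 and 3.41 CPM in GF morphine libraries, 0.542, 1.08, 0.870, 1.47 and 1.80 CPM in Abx morphine libraries, and 4.00, 3.06, 4.08, 3.02 and 3.23 CPM in H2O morphine libraries. The Abx morphine libraries were separated from both other groups, with 6 to 25 reads each. The lowest, median and highest saline libraries had 3.81, 6.06 and 7.78 CPM in the GF group, 1.14, 2.22 and 3.66 CPM in the Abx group, and 2.91, 4.34 and 6.71 CPM in the H2O group. All 6 GF saline libraries were above all 6 Abx saline libraries, and 5 of 6 Abx saline libraries were below all H2O saline libraries. The adjusted p was 0.000228 for Abx morphine against H2O morphine, 5.42e-06 for GF morphine against Abx morphine and 9.24e-05 for GF saline against Abx saline mice. For Abx saline against H2O saline mice the difference of -0.89 ± 0.23 had an adjusted p of 0.113, and for GF saline against H2O saline mice 0.49 ± 0.21 had an adjusted p of 0.0762.

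Morphine against saline in Abx mice gave Hist1h2be an adjusted p of 0.0309, with 3 of 5 Abx morphine libraries below all Abx saline libraries. That call was lost without Abx morphine replicates 1, 2 or 3, with adjusted p of 0.111, 0.0527 and 0.101, and without Abx saline replicates 1 or 3, with 0.114 and 0.0606. The interaction of Hist1h2be, Abx minus H2O, was -0.66 ± 0.35, with an adjusted p of 0.667, so that a larger response to morphine in Abx mice was not shown. The annotated span of Hist1h2be overlaps Hist1h1e and the gene model Gm11398 on the same strand. Its transcript spans a 34949-base intron in the cluster, and reads in the overlap may not be assigned to 1 gene with certainty.

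Hist3h2a codes for a histone H2A and lies in the small Hist3 cluster on chromosome 11. It had 29.4, 20.4, 20.3, 17.2 and 20.5 CPM in GF morphine libraries, 9.85, 16.2, 14.1, 15.7 and 15.05 CPM in Abx morphine libraries, and 19.7, 20.97, 18.4, 22.2 and 20.6 CPM in H2O morphine libraries. Abx morphine libraries lay below both other morphine groups without overlap. Saline libraries had a lowest, median and highest level of 17.2, 20.9 and 23.1 CPM in the GF group, 15.6, 19.0 and 22.2 CPM in the Abx group, and 21.002, 22.5 and 28.2 CPM in the H2O group. These 3 ranges overlapped, and no saline comparison of Hist3h2a passed the threshold. The adjusted p was 0.00654 for Abx morphine against H2O morphine mice and 0.000938 for GF morphine against Abx morphine mice. Abx morphine against Abx saline mice gave 0.0438. It was lost without Abx morphine replicates 1, 3, 4 or 5, with adjusted p of 0.165, 0.102, 0.0550 and 0.0611, and without Abx saline replicates 1, 3 or 6, with 0.107, 0.0980 and 0.0722. The annotated span of Hist3h2a overlaps Trim17 on the same strand and the gene model Gm44313 on the opposite strand. Trim17 was also lower in Abx morphine than in H2O morphine mice (-0.55 ± 0.17), and its part in the result for Hist3h2a was not tested.

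Hist3h2ba, an H2B gene, lies 5151 bases from Hist3h2a on the same strand but did not follow it. It had 14.7, 11.2, 10.95, 17.4 and 13.3 CPM in GF morphine libraries, 14.8, 15.7, 16.6, 16.4 and 16.8 CPM in Abx morphine libraries, and 17.3, 18.3, 13.6, 17.5 and 16.1 CPM in H2O morphine libraries. The Abx and H2O morphine ranges overlapped, with a difference of -0.04 ± 0.12. In saline mice the lowest, median and highest library had 10.2, 13.1 and 15.8 CPM in the GF group, 15.4, 17.0 and 20.2 CPM in the Abx group, and 15.2, 19.1 and 21.3 CPM in the H2O group. GF saline libraries were the lowest, and 5 of 6 lay below every Abx saline library and below every H2O saline library. The adjusted p was 0.000727 against H2O saline and 0.0075 against Abx saline mice, and both calls held without any single library. Without GF saline replicate 1 these differences were -0.59 and -0.47.

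In the same comparison, fold changes across 14447 genes with a known sequence fell with GC content (Spearman rho -0.509 for GF saline minus H2O saline, across genes). Hist3h2ba had 57.2% GC and 614 exon bases, against medians of 50.4% and 4491 bases over all genes with such values. After a correction for GC content and length its difference from H2O saline mice was -0.27 with an edgeR adjusted p of 0.0523, and from Abx saline mice -0.20 with 0.163. Both calls were thus lost under this correction. For Hist1h2bc and Hist1h2be the corrected differences of GF saline minus Abx saline mice were 0.53 and 1.25, with adjusted p of 0.00377 and 0.000442.

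Hist1h1c codes for a linker histone of class H1. Its level was 9.32, 10.4, 8.11, 8.53 and 11.4 CPM in GF morphine libraries, 4.34, 8.29, 10.6, 6.05 and 5.33 CPM in Abx morphine libraries, and 8.43, 10.1, 8.09, 11.3 and 16.9 CPM in H2O morphine libraries. Abx morphine libraries spread widely and overlapped both other groups. The difference of Abx morphine minus H2O morphine mice was -0.66 ± 0.22 with an edgeR adjusted p of 0.0518. Saline libraries had a lowest, median and highest level of 8.87, 11.9 and 15.3 CPM in the GF group, 5.08, 8.52 and 11.5 CPM in the Abx group, and 10.2, 13.6 and 14.7 CPM in the H2O group. Abx saline minus H2O saline mice gave -0.66 ± 0.20 with an adjusted p of 0.183, and 4 of 6 Abx saline libraries were below all H2O saline libraries. Hist1h1c passed the edgeR threshold in none of the 11 comparisons. After the correction for GC content and length it did so in 2, GF saline minus Abx saline mice (0.65, adjusted p 0.0312) and Abx morphine minus H2O morphine mice (-0.63, adjusted p 0.0482).

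Hist2h2be, an H2B gene of the Hist2 cluster on chromosome 3, varied the least. It had 9.32, 7.78, 9.96, 8.38 and 6.31 CPM in GF morphine libraries, 6.33, 6.12, 5.85, 6.44 and 5.11 CPM in Abx morphine libraries, and 6.43, 7.39, 6.71, 6.94 and 7.87 CPM in H2O morphine libraries. In the GF morphine group 4 of 5 libraries were above every Abx morphine library, with an adjusted p of 0.000601. Saline libraries had a lowest, median and highest level of 6.62, 7.12 and 8.11 CPM in the GF group, 5.60, 6.27 and 7.15 CPM in the Abx group, and 6.86, 7.73 and 8.11 CPM in the H2O group. Hist2h2be had the smallest p of the 7 genes in 3 comparisons in which none was called. GF morphine minus GF saline mice gave 0.22 ± 0.10 (edgeR adjusted p 0.747), GF morphine minus H2O morphine mice 0.24 ± 0.10 (adjusted p 0.142), and the interaction GF minus H2O 0.33 ± 0.14 (adjusted p 0.237).

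Hist1h4i codes for histone H4, and with 4 to 17 reads per library it was measured at the edge of what this depth allows. It had 1.39, 0.880, 0.711, 1.71 and 1.02 CPM in GF morphine libraries, 0.542, 0.542, 0.633, 0.543 and 0.288 CPM in Abx morphine libraries, and 0.843, 0.746, 0.658, 0.829 and 1.08 CPM in H2O morphine libraries. Each Abx morphine library was below all libraries of the other morphine groups. The adjusted p was 0.0108 for GF morphine against Abx morphine and 0.172 for Abx morphine against H2O morphine mice (-0.69 ± 0.32). Saline libraries had a lowest, median and highest level of 0.566, 1.20 and 1.402 CPM in the GF group, 0.481, 0.752 and 1.07 CPM in the Abx group, and 0.341, 0.869 and 1.70 CPM in the H2O group. No Abx morphine library reached 10 reads, against 2 of 5 GF morphine and 4 of 5 H2O morphine libraries, so that the gene passed the count rule through other groups.

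The promoters of 3 genes are printed because they belong to a pair of genes that were lower in Abx morphine mice, Hist1h2be and Hist3h2a, and to Hist3h2ba, the neighbour of Hist3h2a, which was not called there. Each is the 250 bases before the transcription start from RefSeq, build GRCm38.p6, on the gene's strand. Capitals mark matches, on either strand, to the TATA box, spelled TATAAA, to the CCAAT box, spelled by its name, to the octamer, spelled ATGCAAAT, and to the H1 box, spelled AAACACA. For Hist1h2be the first of 2 listed starts is shown. Its printed bases lie within the annotated span of Hist1h1e on the same strand (chr13:23620629-23622558). In the longest annotated Hist1h2be transcript a 34949-base intron separates the first exon from the coding exon.
Hist3h2a, chr11:58954435-58954684 (+): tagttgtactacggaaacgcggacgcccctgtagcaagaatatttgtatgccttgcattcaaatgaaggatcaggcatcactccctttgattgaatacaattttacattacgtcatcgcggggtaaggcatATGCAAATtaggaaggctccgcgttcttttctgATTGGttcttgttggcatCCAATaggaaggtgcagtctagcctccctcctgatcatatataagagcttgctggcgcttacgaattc
Hist1h2be, chr13:23621095-23621344 (-): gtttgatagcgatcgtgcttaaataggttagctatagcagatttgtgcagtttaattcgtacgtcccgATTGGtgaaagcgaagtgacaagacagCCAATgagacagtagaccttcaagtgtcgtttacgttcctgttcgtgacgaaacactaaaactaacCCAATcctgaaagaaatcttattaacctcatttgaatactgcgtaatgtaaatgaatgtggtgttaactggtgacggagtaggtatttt
Hist3h2ba, chr11:58948661-58948910 (+): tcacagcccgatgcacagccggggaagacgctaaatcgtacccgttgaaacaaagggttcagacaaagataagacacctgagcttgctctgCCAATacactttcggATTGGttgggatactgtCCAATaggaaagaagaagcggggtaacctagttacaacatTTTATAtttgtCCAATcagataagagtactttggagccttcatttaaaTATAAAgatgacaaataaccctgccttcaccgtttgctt
The octamer, known as a site for POU-domain factors in histone H2B promoters, was found in the printed promoter of Hist3h2a, 119 bases before the start, and not in the printed promoters of Hist1h2be and Hist3h2ba. The printed bases of Hist3h2a overlap the H2B pseudogene Hist3h2bb-ps on the opposite strand (chr11:58954048-58954512). The octamer lies between that pseudogene and Hist3h2a. The second listed promoter of Hist1h2be, not printed, held 1 octamer, 67 bases before its start. Hist3h2ba held 2 TATA boxes, the nearer 39 bases before the start, and 4 CCAAT boxes. Hist3h2a held 2 CCAAT boxes and the printed promoter of Hist1h2be 3. Only the exact spelling TATAAA was counted as a TATA box. The printed promoter of Hist3h2a holds the near spelling TATATAAG close to the start, which was not counted. A promoter was matched for 61 of the 68 genes, not for Hist1h2bc or Hist2h2be, with 62 listed in all. Over windows of 250 bases before and 50 after the start, the CCAAT box was present in 85.5% of these 62 promoters and in 37.4% of all 32851 listed, and the TATA box in 56.5%, against 13.6%. The octamer was present in 22.6%, against 1.74%, and only in H2A and H2B genes among the 62. The H1 box was present in 14.5%, against 7.18%, and in 5 of the 6 H1 promoters.

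Variant histone genes are mostly replication-independent relatives, and all 11 were tested. For this list and those below, values were not corrected for GC content and length. Fold changes of GF saline minus H2O saline mice varied with both across genes (Spearman rho -0.509 and 0.318). For the same lists, all 14607 genes give the scale. In Abx morphine against H2O morphine mice 667 were higher and 841 lower. In Abx saline against H2O saline mice 9 were higher and 8 lower. GF saline mice had 2635 higher and 2177 lower than H2O saline mice, and 2127 and 1869 against Abx saline mice. GF morphine mice had 2143 higher and 1950 lower than Abx morphine mice. With morphine in Abx mice 324 were higher and 467 lower. In Abx morphine against H2O morphine mice 1 was lower, H2afv (-0.40 ± 0.08), and 0 higher, with a median of -0.06, and in Abx saline against H2O saline mice 0 were called by edgeR, with a median of -0.05. GF saline mice had 6 of 11 lower than H2O saline mice and 0 higher, with a median of -0.23, among them the linker histone gene H1fx (-0.55 ± 0.09), H2afj (-0.40 ± 0.08) and H2afy2 (-0.35 ± 0.07), a macroH2A gene. Against Abx saline mice 4 were lower, and in GF morphine against Abx morphine mice 1 was higher, H2afv (0.39 ± 0.08), and 2 lower. Morphine against saline gave 1 lower in Abx mice, H2afv (-0.31 ± 0.07), and 0 in H2O and GF mice.

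Genes that process or transcribe histone mRNA, such as Npat, the activator of histone gene transcription, and Eri1, a nuclease of the histone mRNA end, were all tested, 17 in number. In Abx morphine against H2O morphine mice 1 was higher, Npat (0.27 ± 0.09), and 1 lower, Ncbp2 (-0.41 ± 0.07), which codes for a subunit of the cap-binding complex. Npat was also higher (0.41 ± 0.09) and Ncbp2 lower (-0.41 ± 0.07) with morphine than with saline in Abx mice, where 2 genes of the list were higher and 1 lower. In GF morphine against Abx morphine mice 2 were higher and 4 lower. GF saline mice had 5 higher and 0 lower than H2O saline mice, among them Cstf2 (0.36 ± 0.06), Eri1 (0.44 ± 0.11) and Npat (0.33 ± 0.08). Of all 14607 genes, 32.9% were called there, 2635 of them higher. The medians of the list over the 9 pairwise comparisons lay between -0.06 and 0.08. Of 15 histone chaperone genes tested, 2 were higher in Abx morphine than in H2O morphine mice, Hira (0.29 ± 0.05) and Ubn1 (0.26 ± 0.08), which belong to the complex that deposits H3.3. In Abx saline against H2O saline mice 1 was higher, Asf1b (1.11 ± 0.23). In GF morphine against Abx morphine mice 4 were lower, among them Chaf1a (-0.67 ± 0.17), a subunit of the replication-coupled assembly factor.

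Markers of DNA replication and dividing cells were present at a low level, with a sum of 154 to 230 CPM over 24 genes in every library. Of 22 tested, 0 were called in Abx morphine against H2O morphine, Abx saline against H2O saline, or Abx morphine against Abx saline mice, by edgeR. Of all genes, 10.3%, 0.116% and 5.42% were called there. In GF morphine against Abx morphine mice 3 were lower, E2f1 (-0.84 ± 0.20), Cdt1 (-1.14 ± 0.34) and Mcm7 (-0.33 ± 0.11). Of all 14607 genes, 1950 were lower there. GF saline mice had 1 higher than H2O saline mice, Tyms (0.75 ± 0.21), where 32.9% of all genes were called. Of 10 markers of neural progenitors and neuroblasts, 0 were called in Abx morphine against H2O morphine mice, and 1 was higher and 2 lower in GF morphine against Abx morphine mice. Of 13 tested non-histone genes near the clusters, 0 were higher and 2 lower in Abx morphine than in H2O morphine mice, Trim17 and Iba57 (-0.22 ± 0.07). In GF morphine against Abx morphine mice 1 of the 13 was higher and 1 lower.

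RNAs that carry no poly(A) tail were used as a measure of how far such RNA entered the libraries. Of 17 on the list 12 were in the table and 2 were tested, Rmrp and Rpph1, the RNA components of RNase MRP and RNase P. The sum over the list was 2.56 to 66.4 CPM, with a median of 4.70, in GF morphine libraries, 1.70 to 4.16 CPM in Abx morphine libraries and 1.81 to 3.23 CPM in H2O morphine libraries. The value of 66.4 CPM was that of GF morphine replicate 5, and the others of its group reached 13.6 CPM. In saline mice it was 3.31 to 8.74 CPM in the GF group, 0.658 to 5.46 CPM in the Abx group and 0.971 to 2.45 CPM in the H2O group. Rpph1 (3.27 ± 0.65) and Rmrp (2.35 ± 0.57) were higher in GF morphine than in Abx morphine mice, as 5 clustered histone genes were. Both were also higher in GF morphine than in H2O morphine mice (3.24 ± 0.65 and 2.86 ± 0.59), where none of the 7 clustered histone genes was called, and Rmrp (1.65 ± 0.64) was higher in GF saline mice when set against H2O saline mice. Between Abx morphine and H2O morphine mice 0 of the 2 were called by edgeR. Their part in the differences of the clustered histone genes was not tested.

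Markers of several cell types moved with the Abx comparisons. Of all genes, 10.3% were called in Abx morphine against H2O morphine mice (5.76% lower). In GF morphine against Abx morphine mice 28% were called (14.7% higher). The share was 0.116% in Abx saline against H2O saline and 27.4% in GF saline against Abx saline mice (14.6% higher). It was 5.42% with morphine in Abx mice (3.2% lower). In bulk tissue, fewer cells of a type and less RNA per cell cannot be told apart. Microglial markers were lower in Abx morphine than in H2O morphine mice for 9 of 13 genes and higher for 0, with a median of -0.33, among them Olfml3 (-1.46 ± 0.13) and Fcrls (-1.18 ± 0.12). Their sum was 447 to 532 CPM in Abx morphine libraries and 602 to 666 CPM in H2O morphine libraries, and no marker was at 0 in any of the 6 groups. In GF morphine against Abx morphine mice 12 of 13 were higher, with a median of 0.49 and a sum of 614 to 738 CPM in GF morphine libraries. In Abx saline against H2O saline mice 2 microglial markers were lower, with a sum of 539 to 662 CPM in Abx saline and 699 to 744 CPM in H2O saline libraries. In GF saline against Abx saline mice 5 of 13 were higher, and with morphine against saline in Abx mice 4 were lower. Oligodendrocyte precursor markers were lower for 3 of 6 genes in Abx morphine than in H2O morphine mice, and higher for 4 of 6 in GF morphine than in Abx morphine mice. Their sum was 296 to 416 CPM in GF morphine, 257 to 311 CPM in Abx morphine and 352 to 394 CPM in H2O morphine libraries, with no marker at 0. Oligodendrocyte and myelin markers were lower for 3 of 13 genes in Abx morphine than in H2O morphine mice and higher for 5 of 13 in GF morphine than in Abx morphine mice. In Abx saline against H2O saline mice 2 of 13 were lower, Gjb1 (-0.72 ± 0.14) and Klk6 (-1.04 ± 0.21), with a median of -0.33, and in GF saline against Abx saline mice 5 of 13 were higher. The part of these markers in the differences of the clustered histone genes was not tested.

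Markers of the remaining cell types were compared between the same groups. Of all genes, 10.3% were called in Abx morphine against H2O morphine mice and 28% in GF morphine against Abx morphine mice. In GF saline against H2O saline mice 32.9% were called, 14.9% lower. In Abx morphine against H2O morphine mice, astrocyte markers were lower for 2 of 10, mural markers for 2 of 9, and endothelial markers higher for 1 and lower for 3 of 11. Medium spiny neuron markers (13 tested), cortical glutamatergic markers (8), ependymal and choroid plexus markers (8) and blood cell markers (2) had 0 called there by edgeR, and 1 of 7 hypothalamic and pituitary markers was lower. In GF morphine against Abx morphine mice, cortical glutamatergic markers were lower for 7 of 8, with a sum of 9.46 to 14.2 CPM in GF morphine and 156 to 986 CPM in Abx morphine libraries. Hypothalamic and pituitary markers were higher for 4 of 7, astrocyte markers higher for 2 and lower for 2, endothelial markers higher for 3, mural markers lower for 1 and ependymal and choroid plexus markers lower for 1. The cortical sum of 156 to 986 CPM in Abx morphine libraries overlapped the 9.94 to 1188 CPM in H2O morphine libraries. In GF saline against H2O saline mice, where Hist3h2ba was lower, endothelial markers were lower for 7 of 11 and higher for 1, mural markers lower for 3 of 9, medium spiny neuron markers lower for 2 of 13, and hypothalamic and pituitary markers higher for 4 of 7. The part of these lists in the result for Hist3h2ba was not tested.

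Members under the count rule were described by their reads alone. Of the 61 genes, 5 had 100 or more reads over all libraries, 29 had 10 to 99, 16 had 1 to 9 and 11 had none. Without a filter on low counts, 57 clustered histone genes were tested, and 2 further genes were called between GF saline and H2O saline mice, 2 between GF saline and Abx saline mice and 4 between GF morphine and Abx morphine mice. In all, 5.26%, 8.77% and 15.8% of the 57 were called in these comparisons, where 21.8%, 17.7% and 18.6% of all 20247 genes were. Hist1h3d, an H3 gene with 43 reads in all and 1249 annotated bases, was higher in all 3 of these comparisons. It is named here after its values were seen, and 24.8% of its 50-base windows occur in another clustered histone gene. Over all 68 genes together, reads per M reads in genes, without TMM scaling, averaged 91.2 ± 10.04 in GF morphine, 62.4 ± 8.46 in Abx morphine and 87.3 ± 8.91 in H2O morphine libraries (SD, n = 5 each). In GF morphine replicate 5 the total was 105, with 89.0 from the 7 genes, against group means of 91.2 and 83.4. The calls made without a filter were not repeated without this library. In saline mice this total averaged 93.3 ± 6.87 in the GF group, 77.1 ± 8.54 in the Abx group and 102 ± 7.12 in the H2O group (SD, n = 6 each).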

How the data were processed

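Counts of reads per gene were deposited by the authors as 1 table of 33 libraries, not normalized. Reads were checked with FastQC and aligned with STAR 2.4.0, per the submitters' processing notes. Not given in the sources used here: build, annotation, read counter, strandedness. The table has 27 gene names damaged into dates, and none was used as a member. Members and gene lists were chosen with earlier results of these data known. Genes were filtered with edgeR 4.0.16 (filterByExpr, minimum count 10), scaled by TMM and fitted over all 6 groups with the quasi-likelihood test in R 4.3.3, with Benjamini-Hochberg adjustment over 14607 genes and a threshold of 0.05. The test was checked on simulated counts. SE is the log2 fold change divided by the square root of F. Alternatives used DESeq2 1.42.0, limma 3.58.1 (voom with quality weights), other scaling factors and filters, only the groups compared, a replicate block, offsets for GC content and length, and each library left out. All 7 genes that passed are given; in the other lists at most 3 called genes per direction and comparison, those with the smallest p, are named. Transcripts are GENCODE M21 (GRCm38) and promoters RefSeq (GRCm38.p6). Libraries held 4.87 to 15.3 M reads, so a gene at 10 reads carries large counting error. P-values set a difference between groups against the spread between libraries. No cage or batch is in the labels, so libraries were treated as independent. Abx and H2O were assigned by cage, and where mice of a cage are alike the p-values may be too small.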

Additional observations from a re-analysis of the deposited data

Results flagged for a closer look

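In 3 of 42 sets of values, each 1 gene in 1 group, a single library stood far from the rest of its group by Dixon's test at the 95% level, which chance gives in about 1 of 20 such sets. Hist3h2a had 29.4 CPM in GF morphine replicate 1, against 17.2 to 20.5 CPM in the other GF morphine libraries. Hist1h1c had 10.2 CPM in H2O saline replicate 8, against 13.1 to 14.7 CPM in the other H2O saline libraries. Hist1h4i had 0.288 CPM in Abx morphine replicate 5, against 0.542 to 0.633 CPM in the other Abx morphine libraries.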

How the results depend on the processing

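No called difference of the 7 clustered histone genes changed sign under the alternatives run. Differences that were not called did so, among them, with GC and length offsets, Hist3h2ba in Abx morphine against Abx saline mice (0.02 with them, -0.12 without), Hist1h2bc in GF morphine against H2O morphine mice (-0.01 with them, 0.08 without) and Hist1h1c in GF saline against H2O saline mice (0.02 with them, -0.15 without). The count of clustered histone genes called in GF saline against H2O saline mice was 1 by edgeR, 2 with voom and 0 with GC and length offsets. Of all genes, 32.9%, 37.8% and 18.1% were called in these fits. With no filter the count was 3 of 57 tested, against 21.8% of all genes, and 1 to 2 with single libraries left out. For Abx saline against H2O saline mice this count was 1 by edgeR, 2 with DESeq2, 3 with voom and 0 with the replicate block. Of all genes, 0.116%, 0.685%, 1.23% and 0.0274% were called in these fits. With single libraries left out the count was 0 to 2. For GF saline against Abx saline mice it was 3, where 27.4% of all genes were called. No filter gave 5 of 57, against 17.7% of all genes, and libraries left out gave 3 to 4. For H2O morphine against H2O saline mice it was 0, and 0 to 0 with libraries left out. When only the groups compared were fitted it was 1 (Hist1h2bc, edgeR adjusted p 0.0475), where 6.97% of all genes were called. For Abx morphine against Abx saline mice it was 3, where 5.42% of all genes were called, and 0 to 3 with libraries left out. The replicate block gave 2 (5.11% of all genes) and no filter 2 of 57 (2.74%). In both, Hist3h2a was lost (edgeR adjusted p 0.0673 and 0.0601). GC and length offsets gave 1 (5.23% of all genes). When only the groups compared were fitted, 0 of the 6 tested were called (7.99% of all genes). For GF morphine against H2O morphine mice it was 0, with 1 by voom, where 5.86% and 8.16% of all genes were called. For Abx morphine against H2O morphine mice it was 3, where 10.3% of all genes were called, and 3 to 4 with libraries left out. Voom gave 5, with 24.3% of all genes called. DESeq2 and GC and length offsets each gave 4, with 12.5% and 14% of all genes called. For GF morphine against Abx morphine mice it was 5, where 28% of all genes were called, and 5 to 6 with libraries left out. No filter gave 9 of 57 (18.6% of all genes). Voom and GC and length offsets each gave 6, 1 of them lower (32.3% and 29.6% of all genes). When only the groups compared were fitted, 4 of the 6 tested were called (26.1% of all genes). The cause of these changes was not tested. Deviations of same-numbered libraries had a mean correlation of -0.0007 over 66 pairs, from -0.47 to 0.46, with 20 above 0.1. A mean over all pairs cannot tell whether the numbers pair some of the mice. Under the replicate block Hist1h2bc in Abx saline against H2O saline mice was -0.68 with an edgeR adjusted p of 0.0984. Low depth limits Hist1h4i and the 61 genes under the count rule most.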
